A study of Mus musculus with 10 samples.

Results

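The 10 genes described here belong to the prostaglandin and leukotriene pathway, out of 28185 genes measured by RNA-seq in Ly6G+ cells of mice with myocardial infarction (MI). They were chosen by name: the cyclooxygenases Ptgs1 and Ptgs2, the prostaglandin E synthase Ptges, the prostaglandin E2 receptors Ptger2 and Ptger4, the lipoxygenases Alox5 and Alox15, the 5-lipoxygenase activating protein Alox5ap, the leukotriene A4 hydrolase Lta4h and the leukotriene B4 receptor Ltb4r1. All mice were C57Bl/6J males aged 12 to 16 weeks, all had the left coronary artery ligated, and all cells were collected at day 3. The MI group (3 libraries: 13, 19 and 20) held cells from the left ventricle below the ligature, and the Blood group (2 libraries: 21 and 22) held cells from blood, both from mice without cell transplantation. The MI + MSC group (3 libraries: 15, 17 and 18) and the Blood + MSC group (2 libraries: 23 and 24) came from mice that also received syngeneic bone marrow mesenchymal stromal cells (MSC) by injection beneath the skin (3 sites, 1000000 cells per site). No library of unligated animals was analysed here. Cells were enriched with anti-Ly6G magnetic beads without a further sort, so that other cells of the digested ventricle or of blood can be present. The labels give no mouse numbers and do not state whether animals were pooled, so p-values measure the spread between these libraries, and the batch named in the labels is the group itself, so that batch and group cannot be told apart.

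Eicosanoids are lipid mediators made from arachidonic acid, which phospholipases release from membranes. The cyclooxygenases turn it into prostaglandin H2, Ptgs1 as a largely constitutive and Ptgs2 as an inducible enzyme, and Ptges converts that product into prostaglandin E2, which acts on neutrophils and macrophages through receptors that raise cyclic AMP, among them those encoded by Ptger2 and Ptger4. On the other branch, Alox5 with its helper Alox5ap makes leukotriene A4, Lta4h hydrolyses it to leukotriene B4, and Ltb4r1 is the high-affinity receptor through which leukotriene B4 attracts neutrophils. Alox15 makes other oxidised products of arachidonic acid, including precursors of lipoxins.

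Promoters are shown for Ptgs2, which had the highest level of the members in the heart, and for Alox5, Lta4h and Ltb4r1, which were lower in heart than in blood in at least 1 of the tissue comparisons. The lines give the 250 bases before the start site, from RefSeq in build GRCm38.p6, which is not the build of the expression data, and sequences were matched for 8 of the 10 members (not for Alox5ap and Alox15). Capitals mark matches to any of the searched motifs on either strand.
Ptgs2 (chr1:150099781-150100030, plus strand): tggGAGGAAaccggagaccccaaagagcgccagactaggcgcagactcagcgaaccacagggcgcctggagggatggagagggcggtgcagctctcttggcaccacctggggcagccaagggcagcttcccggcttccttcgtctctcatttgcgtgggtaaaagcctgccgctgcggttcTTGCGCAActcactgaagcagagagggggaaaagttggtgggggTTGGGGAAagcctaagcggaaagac
Alox5 (chr6:116461179-116461428, minus strand): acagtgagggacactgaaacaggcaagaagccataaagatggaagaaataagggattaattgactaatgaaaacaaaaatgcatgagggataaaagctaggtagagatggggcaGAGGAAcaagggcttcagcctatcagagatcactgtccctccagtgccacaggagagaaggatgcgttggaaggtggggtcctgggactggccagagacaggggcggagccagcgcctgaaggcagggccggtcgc
Lta4h (chr10:93453146-93453395, plus strand): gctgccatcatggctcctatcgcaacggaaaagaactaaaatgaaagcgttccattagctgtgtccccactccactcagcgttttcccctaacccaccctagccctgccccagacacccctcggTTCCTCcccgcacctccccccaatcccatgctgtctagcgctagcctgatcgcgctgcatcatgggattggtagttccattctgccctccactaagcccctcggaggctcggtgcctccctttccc
Ltb4r1 (chr14:55765712-55765961, plus strand): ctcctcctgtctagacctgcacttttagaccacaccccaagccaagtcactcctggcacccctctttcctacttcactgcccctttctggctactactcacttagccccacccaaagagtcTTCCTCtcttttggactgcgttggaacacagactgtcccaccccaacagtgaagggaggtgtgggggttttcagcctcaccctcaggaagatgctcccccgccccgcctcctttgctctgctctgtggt
The capitals of Ptgs2 are the C/EBP motif TTNNGNAA at bases 69 to 62 and 25 to 18 before the start and the PU.1 motif GAGGAA at bases 247 to 242. The capitals of Alox5, Lta4h and Ltb4r1 are the PU.1 motif at bases 136 to 131, 126 to 121 and 129 to 124, on the minus strand (read as TTCCTC) in the latter pair. The C/EBP motif was in 36.8% and the PU.1 motif in 23.3% of 32851 promoters of the same length, both common enough that these matches are a description only. No match to the TATA box TATAAA (12.4% of promoters), the CRE half-site TGACGT (6.47%), the AP-1 motif TGANTCA (6.75%) or the NF-kB motif (3.90%) lay in these windows of the 8 members, which says nothing of the factors themselves.

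Reads on genes ranged from 148594 in MI 13 and 268860 in Blood 21 to 8602711 in Blood + MSC 24, and a single read was worth 8.40 normalized counts in MI 13 and 7.07 for Blood 21, while elsewhere it was worth 0.168 to 2.30. Values of low genes in MI 13 and Blood 21 therefore rest on a few reads, and where a member's call or size changed without either or both, that value is given with it. The summed level of 10 neutrophil markers was 2496 to 13429 normalized counts in the heart libraries and 16357 to 49243 in blood. Of the 10 genes, 6 were lower in every heart library than in every blood library. Ly6g itself was at 4.75 to 26.9 in heart and 41.2 to 644.5 in blood. The blood sums did not overlap by treatment. They were 44109 and 49243 for libraries 21 and 22, but only 22967 and 16357 for the treated libraries 23 and 24. Ly6g was split likewise, with 197.8 and 644.5 untreated but 57.0 and 41.2 treated. Macrophage markers (8 genes) were at 2160 to 9648 in heart and 5338 to 7532 in blood. Cardiomyocyte markers (6 genes) were at 2874 to 22504 in heart and 11.05 to 63.6 in blood. Endothelial markers (7 genes) were at 1479 to 1661 in MI and 356.2 to 696.2 in MI + MSC, and mural cell markers (6 genes) at 903.3 to 1084 and 250.1 to 608.8. Platelet markers (7 genes) were at 24799 in Blood 21 and at 571.9 to 1068 in the other blood libraries, and in the heart at 445.4 to 621.0 in MI and 826.5 to 1751 in MI + MSC. In the heart this sum was mostly Pf4 and Ppbp. Fibroblast, B cell and T cell lists reached 1536, 341.9 and 117.7, and the eosinophil and mast cell lists stayed at or below 84.0, with the eosinophil gene Epx at 0 to 2.88. In blood, the fibroblast sum was at 498.0 to 1003 and the endothelial sum at 32.3 to 600.6, the highest in Blood 21, mostly from Pecam1 (586.4). The cells of the heart libraries thus carried lower levels of the defining neutrophil markers than those of blood, and the libraries of both tissues held transcripts of other cells. In these bulk libraries fewer cells of a type and less RNA per cell cannot be told apart.

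Among the members, Ptgs2 had the highest level per length in each of the 6 heart libraries and Alox5ap in each of the 4 blood libraries. Per length (reads per kilobase of exon and 1000000 reads), Ptgs2 had a median of 147.2 in MI and 490.7 in MI + MSC, and Alox5ap followed with 105.9 and 120.6. In Blood and Blood + MSC the order was led by Alox5ap, with medians of 340.5 and 207.5, and Alox5 (82.3 and 79.2) and Ltb4r1 (69.0 and 102.8) lay within the wide range of Ptgs2 (medians of 69.0 and 111.7). In MI the values of Ptgs2 and Alox5ap overlapped, and in MI + MSC they did not. Among all genes of a library ranked on this scale, Ptgs2 was between rank 36 and 322 in the 6 heart libraries and between 160 and 4948 in blood. Alox5ap ranked 245 to 851 in heart and 73 to 151 in blood. Ptges, Alox15, Lta4h and Ptger2 were at or below 10.1 per length in every library, and Ptger4 at 2.54 to 14.8.

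**Figure D1:**
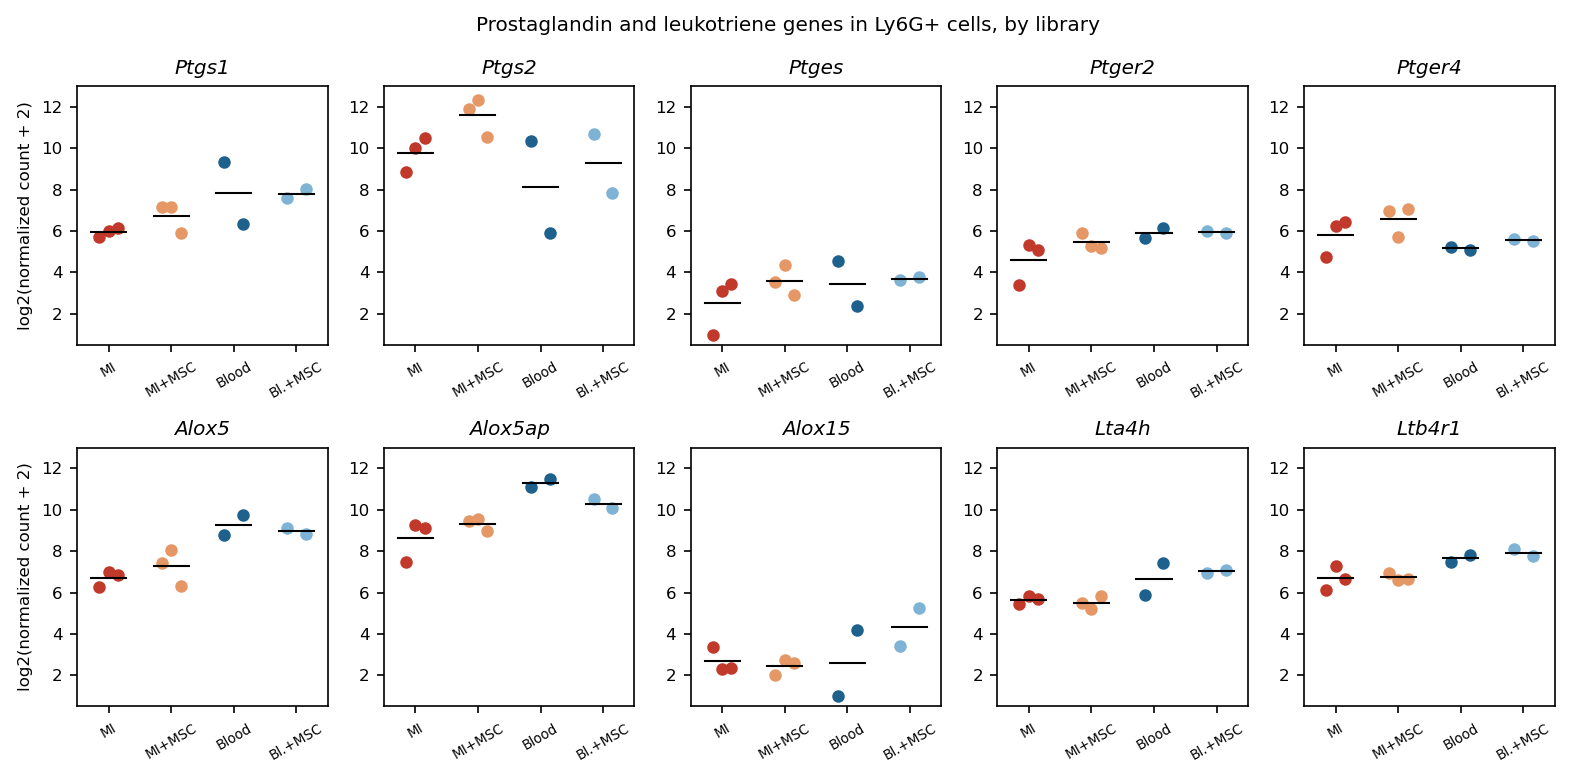
Level of each of the 10 genes by library, as log2(normalized count + 2) on the vertical axis, with 1 point per library for MI and MI + MSC (n = 3 each) and Blood and Blood + MSC (Bl.+MSC, n = 2 each) and a line at the mean of the log2 values. Ptgs2 reached its highest points in MI + MSC and was spread widely within both blood groups, while Alox5, Alox5ap and Ltb4r1 lay higher in blood than in heart.

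Ptgs2, the inducible cyclooxygenase (ENSMUSG00000032487, chr1:149975194-149983978 in GRCm39), was at 462.2, 1039 and 1418 normalized counts in the libraries MI 13, 19 and 20, whereas MI + MSC 15, 17 and 18 gave 3789, 5099 and 1504. Each MI + MSC library was above each MI library, although MI + MSC 18 lay close to MI 20. The MI mean was 973.1 ± 481.3 (SD, n = 3) and the MI + MSC mean 3464 ± 1820 (SD, n = 3), a log2 fold change of 1.80 (95% interval -0.46 to 4.07), or 3.49-fold on the log2(normalized count + 2) scale. The difference did not pass the test across all genes (limma, adjusted p-value = 0.65, unadjusted 0.11), and an exact permutation test (two-sided) gave p = 0.1, the smallest that 3 against 3 libraries allow. Leaving out each library in turn kept the log2 fold change between 1.34 (without MI 13) and 2.32. The summed platelet markers were higher and the summed endothelial and mural cell markers lower in each MI + MSC library than in each MI library. The platelet sum rose through Pf4 (mean 407.7 in MI and 967.7 in MI + MSC) and Ppbp (103.8 and 280.8). The means of Itga2b (23.3 and 5.68), Gp5, Gp9 and Treml1 were lower in MI + MSC, and Gp1ba stayed at or below 2.30 in the heart. The part of these markers in the Ptgs2 difference was not tested. In blood, Ptgs2 was at 1286 in Blood 21 but 57.2 in Blood 22, and at 1644 in Blood + MSC 23 but 228.3 in Blood + MSC 24. Each blood group thus held a high and a low library, and their values overlapped. The heart and blood groups overlapped too, and neither MI vs Blood (log2 fold change 1.68, adjusted p-value = 0.28) nor MI + MSC vs Blood + MSC (2.32, adjusted p-value = 0.20) passed the limma test. The first of these turned to -0.55 without Blood 22 and was 3.90 without Blood 21, each with a single Blood library left. It was 4.36 without both shallow libraries, again with a single Blood library left. The second lay between 0.90 without Blood + MSC 24 and 3.74 without Blood + MSC 23. It was called without both shallow libraries, but at the same size of 2.32. Neither of them belongs to these groups, so only the estimated spread between libraries changed. Ptgs1 and Alox12 had their highest values in Blood 21, the shallow library with high platelet markers, and the part of platelet transcripts in its values was not tested. The antisense lncRNA Ptgs2os overlaps Ptgs2 and had 53 reads in all.

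Ptgs1, the constitutive cyclooxygenase (ENSMUSG00000047250, chr2:36120438-36142287), was much lower than Ptgs2 in the heart. The MI libraries held 50.4, 61.5 and 68.5 normalized counts and the MI + MSC libraries 141.3, 140.0 and 57.6, where MI + MSC 18 lay within the MI range. Blood 21 and 22 differed widely, at 635.9 and 79.9, and Blood + MSC 23 and 24 lay between them, at 193.1 and 256.6. Every MI library was below every Blood library, but the log2 fold change of -1.89 had an adjusted p-value of 0.051 with limma, and edgeR gave -2.53 and DESeq2 -2.49, past the threshold with both. The size rested on Blood 21. It was -0.41 without that library (limma adjusted p-value = 0.55), -0.29 without both shallow libraries (0.66) and -3.37 without Blood 22, where it was called (limma adjusted p-value = 0.00083). MI + MSC lay below Blood + MSC by -1.07 on the log2 scale (limma adjusted p-value = 0.31). It was called without both shallow libraries, but at the same size. Neither of them belongs to these groups, so only the estimated spread between libraries changed. Within a library, the per-length level of Ptgs2 over that of Ptgs1 was 3.48 ± 0.61 log2 units in MI and 4.48 ± 0.27 in MI + MSC (SD, n = 3 each), higher by 0.997 and without overlap (exact permutation test, two-sided p = 0.1, the smallest possible). This ratio was -0.13 in Blood and 1.06 in Blood + MSC, with library values from -0.88 to 2.69.

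Ptges, a prostaglandin E synthase downstream of Ptgs2, was barely detected. The MI libraries held 0, 6.73 and 8.75 normalized counts, the MI + MSC libraries 9.46, 18.4 and 5.42, the Blood libraries 21.2 and 3.25 and the Blood + MSC libraries 10.2 and 11.9. These values rest on 0 to 17 reads per heart library, on 3 and 5 reads for Blood 21 and 22, and on 39 and 71 for Blood + MSC 23 and 24. Its mean was below the filter of 10 normalized counts, so it was not tested with limma, and it was not called in any comparison by edgeR or, where an adjusted p-value was given, by DESeq2. No difference of Ptges between the groups was detectable at this depth. The processed pseudogene Gm13400 lies on the same strand within Ptges, which adds to its uncertainty. Outside the members, the prostaglandin E synthase genes Ptges2 and Ptges3 were at 13.9 to 33.6 and 77.7 to 214.1 normalized counts over the libraries.

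The prostaglandin E2 receptors Ptger2 and Ptger4 were low and differed in their pattern. For Ptger2, the MI libraries held 8.40, 37.5 and 31.4 normalized counts, the MI + MSC libraries 58.1, 36.7 and 34.6, the Blood libraries 49.5 and 69.5 and the Blood + MSC libraries 61.5 and 57.7. MI lay below Blood in every library (log2 fold change -1.34, limma adjusted p-value = 0.065), with 1 read behind the lowest value, and the difference was -0.74 without MI 13 (0.12). For Ptger4, the values were 25.2, 74.0 and 83.9 (MI), 122.3, 50.5 and 132.2 (MI + MSC), 35.3 and 32.5 (Blood), and 47.5 and 44.6 (Blood + MSC). Every MI + MSC library was above both Blood + MSC libraries for Ptger4 (log2 fold change 0.99), with a limma adjusted p-value of 0.22. Its size was the same without both shallow libraries, as neither belongs to these groups. Ptger4 overlaps Ttc33 on the opposite strand, and the counting was stranded.

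Alox5, which starts leukotriene synthesis (ENSMUSG00000025701, chr6:116387032-116438139), was lower in heart than in blood in both tissue comparisons. The MI libraries held 75.6, 125.9 and 114.8 normalized counts, the Blood libraries 431.0 and 864.1. The groups did not overlap, and the log2 fold change was -2.54 ± 0.48 (SE, limma adjusted p-value = 0.0029), or -2.69 relative to the median of all genes under TMM scaling. Alox5 was at 169.0, 261.7 and 78.6 in MI + MSC against 559.0 and 457.5 in Blood + MSC, again without overlap (log2 fold change -1.72 ± 0.48, SE, limma adjusted p-value = 0.035). The MI vs Blood call was kept in 24 of 24 alternative settings and the other in 20 of 24. That other call was lost without Blood + MSC 23 (-1.58), Blood + MSC 24 (-1.87), MI + MSC 15 (-1.80) or MI + MSC 18 (-1.26). All of these are libraries of the comparison itself.

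Alox5ap, which presents arachidonic acid to that enzyme (ENSMUSG00000060063, chr5:149196003-149227762), was likewise low in MI, with 176.5, 618.1 and 559.0 normalized counts, and high in Blood, with 2183 and 2850. Its log2 fold change of -2.66 ± 0.51 (SE, limma adjusted p-value = 0.0032) passed in 24 of 24 alternative settings. In MI + MSC it was at 703.0, 741.6 and 499.0 against 1442 and 1069 in Blood + MSC, without overlap, but this log2 fold change of -0.96 did not pass (limma adjusted p-value = 0.22). It was called without MI 13 (0.037) and without both shallow libraries (0.017), where the spread between libraries was estimated without them. Both Blood + MSC libraries were below both Blood libraries, by -1.01 on the log2 scale (limma adjusted p-value = 0.69), while the heart difference with MSC was 0.69 (adjusted p-value = 0.67) and 0.12 without MI 13. The difference between these MSC effects, the interaction, was 1.70 with an unadjusted p-value of 0.037 and an adjusted p-value of 0.63 (limma), so that a tissue difference in the effect of MSC was not shown. The lncRNA Gm19719 overlaps Alox5ap on the opposite strand and had 1190 reads against 20389 of Alox5ap over all libraries.

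Lta4h and Ltb4r1, the synthase and the receptor of leukotriene B4, were lower in the heart than in the blood libraries of MSC-treated mice. Lta4h was at 43.3, 34.4 and 54.9 normalized counts in the treated heart libraries, but reached 120.8 and 135.1 in treated blood, a log2 fold change of -1.51 ± 0.41 (SE, limma adjusted p-value = 0.033). Ltb4r1 was at 121.7, 96.4 and 99.7 in the treated heart and reached 276.9 and 211.8 in treated blood, a log2 fold change of -1.19 ± 0.35 (SE, limma adjusted p-value = 0.043). The calls of both genes were lost when any 1 of the MI + MSC or Blood + MSC libraries was left out. Without treatment, the MI libraries held 42.0, 54.8 and 49.9 of Lta4h and the Blood libraries 56.5 and 168.9 (difference -0.98 on the log2 scale, limma adjusted p-value = 0.085), and the lower Blood value came from 8 reads. This difference was -1.76 and called without Blood 21 (limma adjusted p-value = 0.0045), -1.65 and called without both shallow libraries (0.0030), and -0.21 without Blood 22 (0.66). Ltb4r1 stood at 67.2, 154.8 and 98.3 in the MI libraries and higher in the Blood libraries (176.6 and 224.8). This log2 fold change of -0.97 passed narrowly (limma adjusted p-value = 0.049) and was kept in 3 of 24 alternative settings, and not without Blood 21 (0.068), MI 13 (0.10) or both (0.061). The lncRNA Gm56758 overlaps Ltb4r1 on the same strand and had 24 reads in all.

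Alox15 was at the limit of detection in the heart, at 8.40, 2.88 and 3.09 normalized counts without MSC and 2.03, 4.59 and 4.07 with MSC, from 1 to 6 reads a library. Blood 21 and 22 held 0 and 16.2 normalized counts, and Blood + MSC 23 and 24 held 8.67 and 36.2. It was not tested with limma. edgeR called it lower in both tissue comparisons (-2.17 and -3.05 on the log2 scale, adjusted p-values 0.046 and 0.0017), and DESeq2 in neither (-1.62 and -2.73, adjusted p-values 0.30 and 0.051). Every MI + MSC library was below both Blood + MSC libraries.

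Counted together, 3 of the 8 members tested were called lower in MI vs Blood (Alox5, Alox5ap and Ltb4r1) and 3 in MI + MSC vs Blood + MSC (Alox5, Lta4h and Ltb4r1), and 0 were called higher in either. A call needed a limma adjusted p-value below 0.05 and a log2 fold change of at least 0.5 in size. Of all 11549 genes tested, 21.2% were called higher and 13.5% lower in MI vs Blood, and 8.23% higher and 5.85% lower in MI + MSC vs Blood + MSC. Of the 8 tested members, those whose groups did not overlap numbered 6 lower in MI vs Blood, against 23.6% of all genes lower and 31.6% higher. In MI + MSC vs Blood + MSC they numbered 5 lower and 1 higher, against 29.7% lower and 33.8% higher, and the untested Alox15 was lower without overlap as well. On the recovered reads, edgeR called 6 of 10 members lower in MI vs Blood (13.8% of its genes) and 4 in MI + MSC vs Blood + MSC (14%), and DESeq2 4 (9.25%) and 3 (5.11%). The median log2 fold change of the 8 members was -1.16 in MI vs Blood and -1.02 in MI + MSC vs Blood + MSC, beside 0.15 and 0.09 over all genes tested. Another scaling moved that median of all genes to 0.63 (library size) or -0.07 (TMM) in MI vs Blood and to 0.17 or -0.50 in MI + MSC vs Blood + MSC. Relative to it, Alox5 was at -2.66 and -2.69 in MI vs Blood and at -1.81 and -1.84 in MI + MSC vs Blood + MSC. Without both shallow libraries, and with a single Blood library left, the median of the 8 members in MI vs Blood was -0.92. Of these, 2 were above 0, Ptgs2 at 4.36 and Ptger4 at 1.23. Neither shallow library takes part in MI + MSC vs Blood + MSC. Its log2 fold changes therefore stayed the same, and only the estimated spread, and with it the calls, changed. The call of 3 in MI + MSC vs Blood + MSC fell to 0 without Blood + MSC 23, Blood + MSC 24, MI + MSC 15 or MI + MSC 18 and to 1 without MI + MSC 17.

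**Figure D2:**
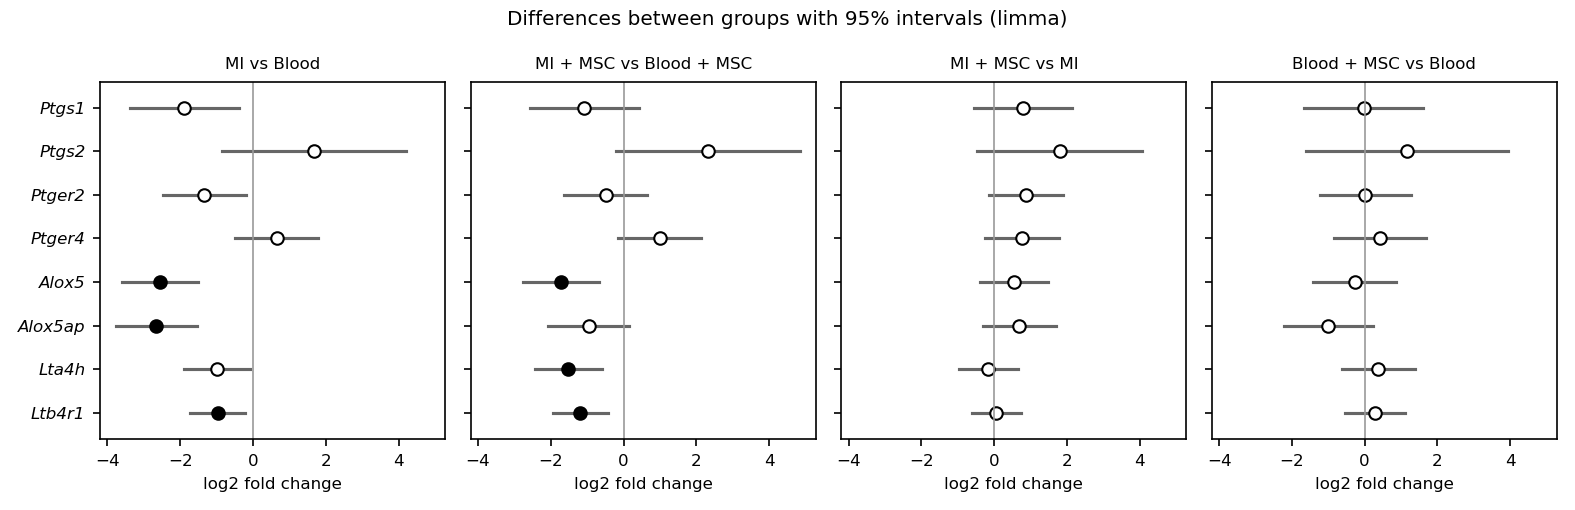
Log2 fold change (horizontal axis) of the 8 tested members in 4 comparisons, with 95% intervals from limma; filled points passed the threshold. Filled points are Alox5, Alox5ap and Ltb4r1 in MI vs Blood and Alox5, Lta4h and Ltb4r1 in MI + MSC vs Blood + MSC, and no point is filled in the MSC comparisons.

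The MSC comparisons ask whether transplantation under the skin changed these genes in cells of the heart or of blood. In the heart, 0 of 8 members passed the test with limma, 0 at an unadjusted p-value below 0.05, and 0 with edgeR or DESeq2. Over all genes, 0% were called by limma, 0.0545% by edgeR and 0.883% by DESeq2, with 925 genes at an unadjusted p-value below 0.05 with limma. The log2 fold changes of 7 of the 8 were above 0 (median 0.73, beside -0.01 over all genes tested). Without MI 13, the library with the fewest reads, 6 of the 8 were above 0 and the median was 0.26, with Ptger2 at 0.28, Ptger4 at 0.24, Alox5 at 0.33 and Ltb4r1 at -0.22. Ptgs2 was the single member tested whose groups did not overlap, against 7.05% of all genes higher and 9.6% lower. The intervals were wide: 0.79 (-0.55 to 2.13) for Ptgs1, 0.88 (-0.14 to 1.90) for Ptger2, 0.77 (-0.25 to 1.79) for Ptger4 and 0.55 (-0.38 to 1.48) for Alox5. Those of Lta4h (-0.16, -0.97 to 0.66) and Ltb4r1 (0.06, -0.62 to 0.74) were centred near 0.

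In blood, 0 of 8 members passed with limma, 0 at an unadjusted p-value below 0.05, and 0 with edgeR or DESeq2, where 0% of all genes were called by limma, 0.448% by edgeR and 1.18% by DESeq2. Alox5ap was lower and Ptger4 higher in each Blood + MSC library than in each Blood library, against 15.4% of all genes lower and 21% higher without overlap. With 2 against 2 libraries an exact permutation test cannot go below 0.333. The median of the 8 members was 0.15, beside 0.11 over all genes tested, which moved to 0.37 with library size and 0.72 with TMM scaling. The intervals reached from -1.62 to 3.93 for Ptgs2 and from -1.67 to 1.61 for Ptgs1. Without Blood 21, the log2 fold change of Ptgs2 went from 1.16 to 3.38, that of Ptgs1 from -0.03 to 1.46 and that of Lta4h from 0.38 to -0.40, with 0 calls and a median of -0.05. For the interaction of MSC and tissue, 0 of 8 members and 0% of all genes passed with limma, and 1 member (Alox5ap) had an unadjusted p-value below 0.05. MI vs Blood and the MSC comparisons share the MI and Blood libraries, so their values are not independent of each other.

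Because the neutrophil markers were lower in the heart libraries, each member was also expressed per 1000 normalized counts of the summed neutrophil markers of the same library, a measure chosen after the values were seen. On this scale Ptgs2 was at 185.2, 132.5 and 242.0 in the MI libraries and at 465.8, 379.7 and 537.4 with MSC. Its values in the Blood libraries were 29.2 and 1.16, and with MSC 71.6 and 14.0. Every heart library was above every blood library of the same treatment, and every MI + MSC library was above every MI library (exact permutation test, two-sided p = 0.1 for MI + MSC against MI and 0.2 for each tissue comparison, the smallest possible). For Alox5 the MI libraries were at 30.3, 16.1 and 19.6, the MI + MSC libraries at 20.8, 19.5 and 28.1, the Blood libraries at 9.77 and 17.5 and the Blood + MSC libraries at 24.3 and 27.97. Its heart and blood values now overlapped in both tissue comparisons. The marker sum was 2496 to 7844 in MI and 44109 to 49243 in Blood, so a gene that fell less is higher in MI on this scale. The share of all genes higher on this scale was not computed. Alox5ap was higher in MI (70.7, 78.8 and 95.4) than in Blood (49.5 and 57.9) on this scale, the opposite direction of its normalized counts. Ltb4r1 and Lta4h also turned, from 4.004 and 4.57 and from 1.28 and 3.43 in Blood to 16.8 to 26.9 and 6.99 to 16.8 in MI, and both overlapped between MI + MSC and Blood + MSC. In MI vs Blood these leukotriene genes were thus lower by no more than the summed neutrophil markers were. Ptger2, Ptger4 and Alox15 were higher in MI on this scale too, Ptgs1 and Ptges overlapped, and no member was lower. Between Blood and Blood + MSC, Alox5ap turned as well, to 62.8 and 65.4 in Blood + MSC, above both Blood libraries. The marker sum of these treated blood libraries was lower, at 22967 and 16357, so here too a gene that fell less comes out higher. Ptger2, Ptger4, Alox5, Alox15, Lta4h and Ltb4r1 were higher with MSC there without overlap, and Ptgs1, Ptgs2 and Ptges overlapped.

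Per 1000 normalized counts of the summed macrophage markers, the picture was another. Ptgs2 was at 214.0, 181.0 and 230.6 in MI and at 440.5, 1039 and 155.9 in MI + MSC, where MI + MSC 18 fell below each MI library, and its MI + MSC and Blood + MSC values overlapped. Every MI library stayed above both Blood libraries for Ptgs2 (170.7 in Blood 21 and 9.51 in Blood 22). Alox5 and Alox5ap stayed lower in heart than in blood in both tissue comparisons on this scale, with Alox5 at 18.7 to 35.0 in MI and 57.2 and 143.7 in Blood. Which cells of the libraries carried Ptgs2 or the leukotriene genes was not tested.

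**Figure D3:**
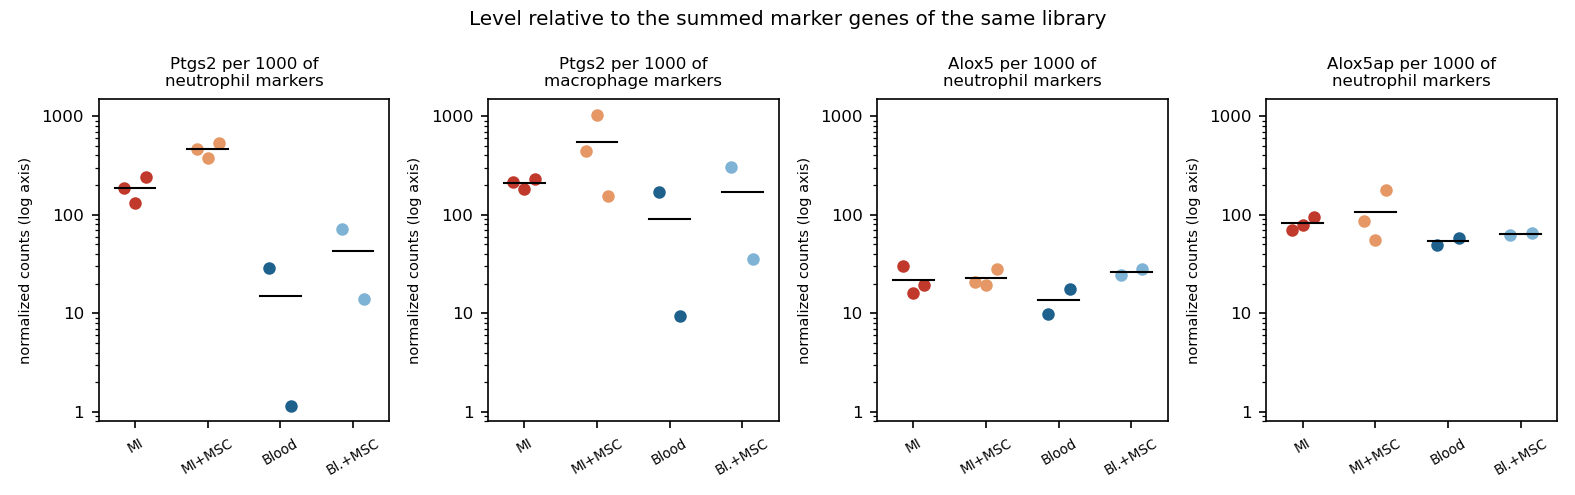
Normalized counts of Ptgs2, Alox5 and Alox5ap per 1000 normalized counts of the summed markers of the same library (log vertical axis), 1 point per library with the group mean as a line. Ptgs2 per neutrophil markers lay between 379.7 and 537.4 in MI + MSC, above MI and both blood groups, while Alox5 values overlapped between heart and blood.

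Beside the members, 48 further genes of eicosanoid synthesis, inactivation, transport and reception were listed, of which 45 were in the table and 30 could be tested. In MI vs Blood, 6 were called higher and 8 lower, against 21.2% and 13.5% of all genes tested. In MI + MSC vs Blood + MSC 2 were called higher and 3 lower, against 8.23% and 5.85%. With each library left out in turn, 7 of the 14 calls in MI vs Blood and 2 of the 5 in MI + MSC vs Blood + MSC held every time. Without both shallow libraries 11 of the 14 and 5 of the 5 held. Their median log2 fold changes were 0.22 and -0.35, beside 0.15 and 0.09 over all genes tested. In both MSC comparisons limma called 0 of the 30, with 1 gene in the heart and 2 in blood at an unadjusted p-value below 0.05. edgeR and DESeq2 each called 0 in the heart and 1 in blood (Alox12).

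Of the 3 genes tested on the substrate release list, 2 (Anxa1 and Pla2g7) were called lower in MI vs Blood. In MI + MSC vs Blood + MSC 1 (Anxa1) was called lower. Of all genes tested, 13.5% and 5.85% were called lower. The third gene, Pla2g4a, is a phospholipase A2 and was called in neither comparison. Its means were 71.9 normalized counts in MI, 58.4 in Blood, 58.0 in MI + MSC and 62.9 in Blood + MSC. Anxa1, annexin A1, an inhibitor of phospholipase A2 with its own receptor Fpr2, had 100.9, 295.1 and 260.9 normalized counts in the MI libraries but 1095 and 4173 in Blood. It was called in both tissue comparisons (log2 fold changes -3.42 and -2.36, limma adjusted p-values 0.0017 and 0.022), the second of which was lost without any 1 of the MI + MSC or Blood + MSC libraries. Pla2g7, the plasma platelet-activating factor acetylhydrolase, was called in MI vs Blood (-2.70), where Fpr2, a receptor for lipoxin A4, was called too (-2.45).

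Among the prostanoid synthases, Hpgds, the haematopoietic prostaglandin D synthase, was higher in the heart. The MI libraries held 33.6, 57.7 and 66.4 normalized counts, the MI + MSC libraries 126.4, 50.5 and 158.6. The Blood libraries held 21.2 and 7.80, and the Blood + MSC libraries 4.73 and 5.89. No heart library overlapped a blood library, and both comparisons passed (log2 fold changes 1.80 and 3.82, limma adjusted p-values 0.025 and 0.0015). The first was lost without Blood 22 (1.18), MI 19 (1.71) or MI 20 (1.61). Tbxas1, the thromboxane synthase, was called lower in MI than in Blood (-1.37), but not without Blood 21 (-1.04, limma adjusted p-value = 0.095). Ptgr2, which inactivates prostaglandins, was called higher (0.97).

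The cysteinyl leukotriene branch and the inactivation steps moved both ways in the tissue comparisons. Ltc4s, leukotriene C4 synthase, gave 8.40, 23.1 and 32.9 normalized counts in MI hearts and 37.2, 34.4 and 30.5 with MSC. Blood libraries gave 183.7 and 228.7, and Blood + MSC libraries 195.4 and 333.1. It was called lower in both (-3.31 and -2.84, limma adjusted p-values 0.00055 and 0.0029), and so was Ggt5, which cleaves leukotriene C4 (-2.73 and -2.30). Cyp4f18, which degrades leukotriene B4 in neutrophils, was called lower in MI vs Blood (-2.29), but not without Blood 22 (-1.59). Abcc1, an exporter of leukotriene C4, was called higher in both (1.10 and 1.22), of which the first held in 8 and the second in 6 of the 10 fits with a library left out. Mgst3, a microsomal glutathione transferase, was called higher in MI vs Blood (1.56). The calls of Mgst3 and Ptgr2 were kept in 6 of 23 and 10 of 24 alternative settings.

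Dpep1, a dipeptidase of leukotriene D4, was at 25.2, 30.8 and 20.6 in MI with 0 reads in both Blood libraries. Against a floor of 3 reads over the Blood group it was at least 14.3-fold higher. Ephx2, the soluble epoxide hydrolase, was at 58.8, 33.6 and 13.4 in MI against 7.07 and 0 in Blood, from 1 read, and was called higher, but not without Blood 22 or MI 19. Alox12, the platelet-type lipoxygenase, was at 16.8, 33.6 and 14.4 in MI, and in Blood at 85.1 in Blood 22 and 2423 in Blood 21, the library with high platelet markers. Its log2 fold change of -4.37 in MI vs Blood passed (limma adjusted p-value = 0.0082), and without Blood 21 it was -1.97 and still called (0.028). Its part that goes with platelet transcripts was not tested. In the MSC comparisons the largest differences among genes not called were -1.54 for Dpep1 and -1.36 for Ephx2 in the heart (limma adjusted p-values 0.60 and 0.65), and -3.81 for Alox12 and 2.26 for Akr1b3, an aldose reductase, in blood (adjusted p-value 0.67 for each). The value of Akr1b3 comes from 0 reads in the shallow Blood 21, beside 56.5 normalized counts in Blood 22 and 45.7 and 54.7 in Blood + MSC, and it turned to -0.17 without Blood 21. For the interaction they were 2.89 for Alox12 and -2.28 for Akr1b3 (adjusted p-value 0.63 for each), and Akr1b3 turned to 0.16 without Blood 21.

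**Figure D4:**
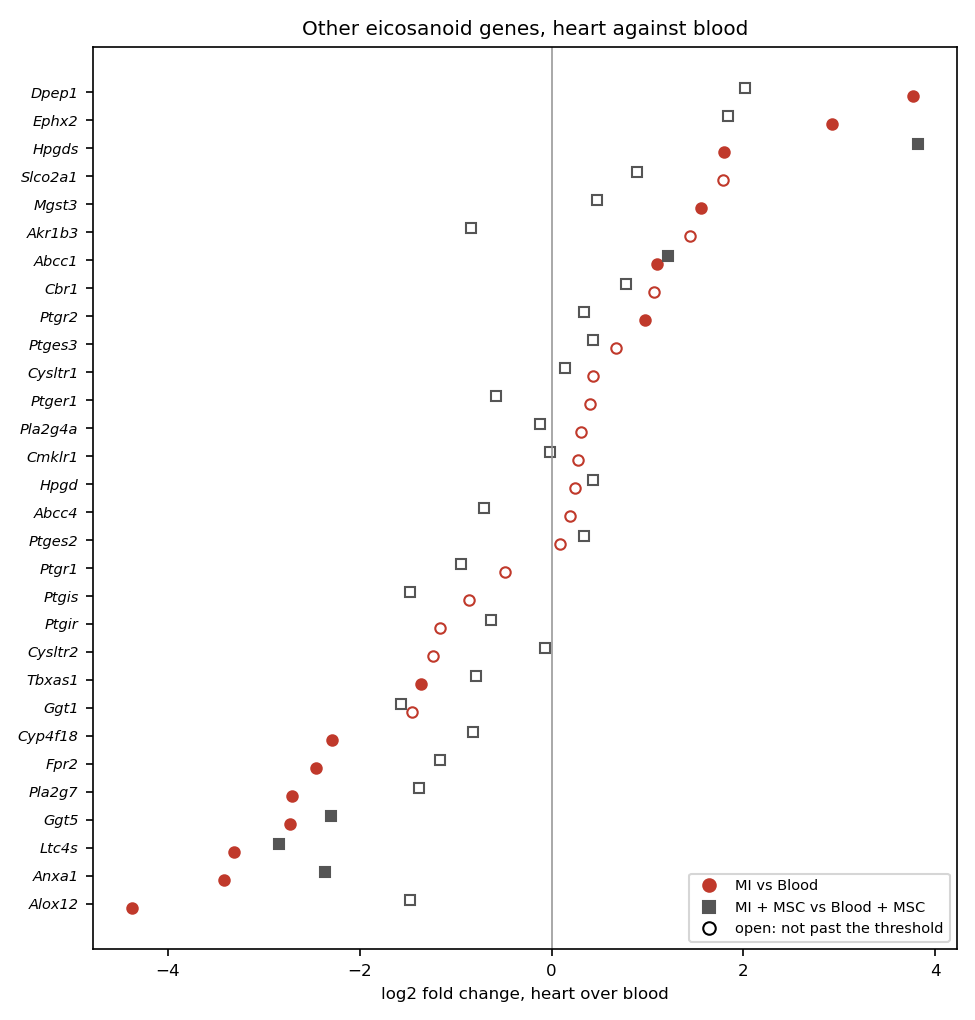
Log2 fold change of heart over blood (horizontal axis) for the 30 other eicosanoid genes tested, as circles for MI vs Blood and squares for MI + MSC vs Blood + MSC; filled symbols passed the limma threshold. Alox12, Anxa1 and Ltc4s stand at the lower end in MI vs Blood, and Hpgds and Abcc1 are filled on the higher side in both comparisons.

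For the cyclooxygenase, the lipoxygenase-side gene and the receptor with the highest mean level, the genes with the most similar log2 levels over the 10 libraries were listed, as a description across libraries that share tissue and depth differences. For Ptgs2 they were Gm50394 (Pearson r = 0.96), the immediate early gene Nr4a1 (0.95) and Gm37560 (0.95), with r over the 6 heart libraries alone of 0.93, 0.98 and 0.94. Nr4a1 ranged from 56.5 to 1642 normalized counts over the libraries. For Alox5ap they were S100a11, a calcium-binding protein gene (0.99), Rnf114 (0.99) and Gm57402 (0.99), and 0.97, 0.99 and 0.996 within the heart. For Ltb4r1 they were Naaa (0.98), Dnajc10 (0.96) and Retreg3 (0.95), and 0.94, 0.81 and 0.89 within the heart.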

How the data were processed

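RNA-seq of 10 libraries of Ly6G+ cells was used. The authors trimmed reads (Trimmomatic), removed duplicates (Picard), aligned with STAR to GRCm39, counted reads per gene and strand with featureCounts, discarded mitochondrial reads and scaled libraries by DESeq2 size factors. What was deposited is a signal, the reads of a gene over that factor (here "normalized counts"). The table named as raw counts is equal to it in 281850 of 281850 values. Dividing by the value of a single read gave whole reads for 100% of low values (tolerance 0.1 reads). Gene positions came from GENCODE M39, which held 27906 of 28185 identifiers.

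limma (3.58.1, R 4.3.3, intensity trend) was fitted to log2(normalized count + 2) with a mean for each group, using all 10 libraries together and only genes averaging 10 or more (11549). Fold changes on this scale understate those of low genes. Benjamini-Hochberg adjustment was over all genes tested. Calls needed an adjusted p-value below 0.05 and a log2 fold change of at least 0.5 in size (interaction: adjusted p-value alone). edgeR (4.0.16) and DESeq2 (1.42.0) on the recovered reads were among 24 alternatives. Floors were 3 reads and cover counting error only. Scripts were tested on simulated data. The members, gene lists and tests were chosen with earlier results of these data known. Named genes were all members, other pathway genes called in a comparison or else the 2 with the largest difference, and the 3 genes most correlated with Ptgs2, Alox5ap and Ltb4r1. Pla2g4a, Ptges2 and Ptges3 were named beside these and are not counted among the other named genes. Ratios to summed markers were added after the values were seen. Pla2g4b and Alox12b were not matched to the table, and Dpep2, whose symbol has more than 1 identifier, was left out.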

Additional observations from a re-analysis of the deposited data

Results flagged for a closer look

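Dpep1 values lay on opposite sides with MSC in the heart and in blood, but no change was shown in either. It was at 25.2, 30.8 and 20.6 normalized counts in MI and at 8.11, 4.59 and 10.2 in MI + MSC, lower in 3 of 3 libraries (limma adjusted p-value = 0.60). Both Blood libraries were at 0, and the Blood + MSC libraries at 0.263 and 0.337, from 0, 0, 1 and 2 reads, with the reads in the deepest pair of libraries. The interaction was -1.75 on the log2 scale with an adjusted p-value of 0.63 (limma, unadjusted 0.090), so the difference between the tissues did not pass the test, and the blood values lie below the floor of 3 reads. Groups of 2 or 3 libraries are too small for a test of single outlying values.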

How the results depend on the processing

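No paired analysis was possible because the labels number each library once and tie no heart library to a blood library of the same mouse. The 24 alternatives changed the pseudocount, filter, scaling or tool, used only the groups compared, weighted libraries, or left libraries out. Of the members' log2 fold changes, 832 kept direction and call, 30 gained and 39 lost a call, and 43 changed direction; of the other named genes', 505, 9, 73 and 4 did. The causes were not tested.

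Members called in MI vs Blood (3) were 6 with edgeR and 5 with edgeR without a filter. In MI + MSC vs Blood + MSC (3) they were 6 with DESeq2 on only the groups compared, 5 with edgeR without a filter, 7 with array quality weights and 6 (1 of them higher) without both shallow libraries, and 0 to 4 with a library left out. The interaction gave 0 to 1 with a library left out, Ptgs1 without Blood 22. Both MSC comparisons gave 0 in each of the 24 alternatives. Other pathway genes called in MI vs Blood (14) were 9 with DESeq2 on the groups compared, TMM scaling or limma on the groups compared, 7 with array weights, and 9 to 15 with a library left out (9 without MI 19). In MI + MSC vs Blood + MSC (5) they were 18 with DESeq2 on the groups compared, 9 with DESeq2, 11 with edgeR, 16 with edgeR without a filter, 12 with limma on the groups compared, 16 with array weights, 13 without both shallow libraries, and 2 to 9 with a library left out (2 without Blood + MSC 23, 3 without Blood + MSC 24, MI + MSC 15 or MI + MSC 18, 8 without Blood 21 or MI 13, 9 without Blood 22). In the heart MSC comparison 4 were called with array weights. In the blood MSC comparison 1 was called with DESeq2 and with either edgeR fit, and 0 to 3 with a library left out (3 without Blood 22). The interaction gave 0 to 2 with a library left out (2 without Blood 22). Over all genes, calls ranged from 0 to 1101 in the heart MSC comparison (1101 with array weights), from 0 to 1506 in the blood MSC comparison (1506 without Blood 22), from 1700 to 4676 in MI vs Blood and from 266 to 5398 in MI + MSC vs Blood + MSC.

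Log2 fold changes that changed direction were not called. In MI + MSC vs MI, Lta4h became 0.038 with DESeq2 on the groups compared, 0.11 with TMM and 0.013 with edgeR without a filter, and Ltb4r1 -0.090 with DESeq2, -0.31 with array weights, -0.068 with library size and -0.22 without both shallow libraries. In Blood + MSC vs Blood, TMM scaling, edgeR without a filter and library size gave 0.64, 0.27 and 0.27 for Ptgs1 and 0.40, 0.18 and 0.028 for Alox5, and DESeq2 gave -0.0130 (groups compared) and -0.065 for Ptger2. Without both shallow libraries, Ptgs1 became 1.46, Ptger2 -0.22, Lta4h -0.40 and Akr1b3 -0.17 there. In the interaction they became -0.78 for Ptgs1, -2.04 for Ptgs2, -0.23 for Ptger4, 0.14 for Lta4h and 0.11 for Akr1b3, and Ptger4 was -0.0460, -0.25 and -0.0582 with TMM, edgeR without a filter and library size.

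With a library left out, values ranged as follows. In MI + MSC vs MI, Lta4h lay between -0.32 and 0.0034 and Ltb4r1 between -0.22 and 0.37. In Blood + MSC vs Blood, Ptgs1 lay between -1.51 and 1.46, Ptgs2 between -1.06 and 3.38, Ptger2 between -0.22 and 0.26, Alox5 between -0.77 and 0.23, Lta4h between -0.40 and 1.15, and Akr1b3 between -0.17 and 4.70. In MI vs Blood, Ptgs2 lay between -0.55 and 3.90. In the interaction, Ptgs1 lay between -0.66 and 2.30, Ptgs2 between -1.58 and 2.87, Ptger4 between -0.18 and 0.78, Lta4h between -1.30 and 0.24, Ltb4r1 between -0.50 and 0.087, and Akr1b3 between -4.71 and 0.16. Where a single Blood or Blood + MSC library was left, it was assumed to vary like the other groups. Depth limits low genes, as 3 reads equal 25.2 normalized counts in MI 13 and 21.2 in Blood 21.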
